A study of Mus musculus with 12 samples.

Results

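The transcription factor NRF2 (encoded by *Nfe2l2*), its inhibitor *Keap1* and 8 antioxidant genes that are widely used as NRF2 targets were followed in tumors with and without knockdown of *Filip1l*. The 10 genes were chosen by name as members of this pathway, with earlier results of these data known. All 10 were among the 15687 genes measured. RNA was sequenced from 12 subcutaneous allograft tumors of mTC11, a mouse lung cancer cell line. There were 6 tumors from the control line (CTL) and 6 from the *Filip1l*-knockdown line, all taken 24 days after 1000000 cells were injected into immune-competent C57BL6/J males of 8 weeks. CTL cells had received a lentivirus with a scrambled short hairpin RNA and knockdown cells one with a hairpin against *Filip1l*, and the study asked what lowering this gene does to lung tumors. Both lines were mixed puromycin-selected clones rather than single clones. Against *Filip1l* 2 hairpin sequences were made, and which of them the sequenced tumors carried is not given in the sources used here. Line and knockdown go together in this design, so the knockdown and other differences between the lines cannot be told apart.

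Under resting conditions KEAP1 holds NRF2 in the cytoplasm and, through the CUL3 ubiquitin ligase, marks it for degradation. When cysteines of KEAP1 are modified by oxidants or electrophiles, NRF2 escapes, enters the nucleus, pairs with a small MAF protein and binds antioxidant response elements near genes for glutathione and thioredoxin metabolism, quinone reduction, heme breakdown and NADPH supply. Because this control acts on the protein, the *Nfe2l2* transcript alone does not report NRF2 activity. In lung adenocarcinoma the pathway is best known for mutations of *KEAP1* or *NFE2L2* that leave it constantly on.

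The promoter sequences are shown because NRF2 is known to act through antioxidant response elements. Only matching letters were searched, and binding of NRF2 was not tested. The core of the antioxidant response element was searched as TGACNNNGC on both strands, in windows from 250 bases before to 50 bases after each start site (RefSeq, GRCm38.p6). Windows were matched for 7 of the 10 genes, all but *Hmox1*, *Gclc* and *Gsr*. The core was found in 5 of the 7 (71.4%), compared with 13 of 47 other genes of a wider NRF2 pathway list (27.7%), 1943 of 11530 measured genes (16.9%) and 4071 of all 32841 windows (12.4%). The 5 sites are printed 5′ to 3′ on the strand of the gene with 10 bases on each side, and the capitals mark the core or its reverse complement. Coordinates are those of the 9 capital bases.
*Nfe2l2*, - strand, chr2:75704895-75704903: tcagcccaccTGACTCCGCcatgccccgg
*Gclm*, + strand, chr3:122245423-122245431: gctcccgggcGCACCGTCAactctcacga
*Txnrd1*, + strand, chr10:82859114-82859122: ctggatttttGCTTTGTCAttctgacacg
*Srxn1*, + strand, chr2:152105552-152105560: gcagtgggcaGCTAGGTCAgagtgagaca
*G6pdx*, - strand, chrX:74428929-74428937: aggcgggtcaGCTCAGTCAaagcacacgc
Relative to the start site, counted as 1, the core began at -240 in *Nfe2l2*, -134 in *Gclm*, -92 in *Txnrd1*, -57 in *G6pdx* and 29 in *Srxn1*, where it lies inside the transcript. *Txnrd1* has 3 windows, of which 1 held the core. None of these 5 cores contained the AP-1 motif TGACTCA, which can overlap the antioxidant element. The windows of *Keap1* and *Nqo1* did not hold these letters, which says nothing of sites outside the windows.

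Values are normalized counts, which are reads per gene divided by a size factor of each tumor. The tumors had between 17834745 and 32419578 reads on the listed genes, and the floor of 3 reads, which covers counting error only, was worth 3.15 normalized counts in the mean CTL tumor and 2.91 in the mean knockdown tumor. *Filip1l* itself, on chromosome 16, fell from 2311 ± 211 normalized counts (SD, n = 6) to 1924 ± 165, a log2 fold change of -0.26 (adjusted p = 0.00998 by limma), with overlapping groups. This is RNA of whole tumors. For the protein, the study reports less FILIP1L by immunoblot in the knockdown cells and by tissue staining in tumors grown from them. The summed markers of epithelium were higher in knockdown tumors (190752 to 355170.2 normalized counts) than in CTL tumors (135655 to 176354), with 6 of 7 markers called higher. The marker not called was *Cdh1* (log2 fold change 0.008, adjusted p = 0.950 by limma). In knockdown tumors the keratins *Krt8*, *Krt18* and *Krt19* had means of 121129, 63557 and 67689 normalized counts. Neutrophil markers were higher too (767 to 1223 compared with 305 to 379.8, 6 of 6 called). Sums of macrophage markers overlapped (27242 to 37223 in CTL, 24368 to 65724 in knockdown), with 2 of 9 called higher. Of all genes measured, 21.1% were called higher. Knockdown replicate 1 had the highest macrophage sum and the lowest epithelial sum of its group. Of lung epithelial markers, *Sftpc* was listed at 0 in at least 1 tumor, and *Sftpa1* and *Scgb1a1* were not among the listed genes. In whole tumors, fewer cells of a type and less RNA per cell cannot be told apart.

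Of the 10 genes, 6 were higher in *Filip1l*-knockdown tumors (*Keap1*, *Txnrd1*, *Srxn1*, *Nqo1*, *Hmox1* and *G6pdx*), 2 were lower (*Gclc* and *Gsr*), and *Nfe2l2* and *Gclm* did not pass the test (limma, adjusted p under 0.05 over all genes). Over all 15687 genes, 21.1% were called higher and 20.7% lower, 41.9% in either direction. The called changes ran from -0.24 to 0.68 on the log2 scale. The median log2 fold change of the 10 genes was 0.24, compared with 0.0078 over all genes. The largest stayed under a 2-fold limit, which 10.2% of all genes passed. *Srxn1* was the 1 gene whose groups did not overlap, with knockdown higher, as was seen for 10.6% of all genes. The part of the marker differences above in these changes was not tested.

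**Figure D1:**
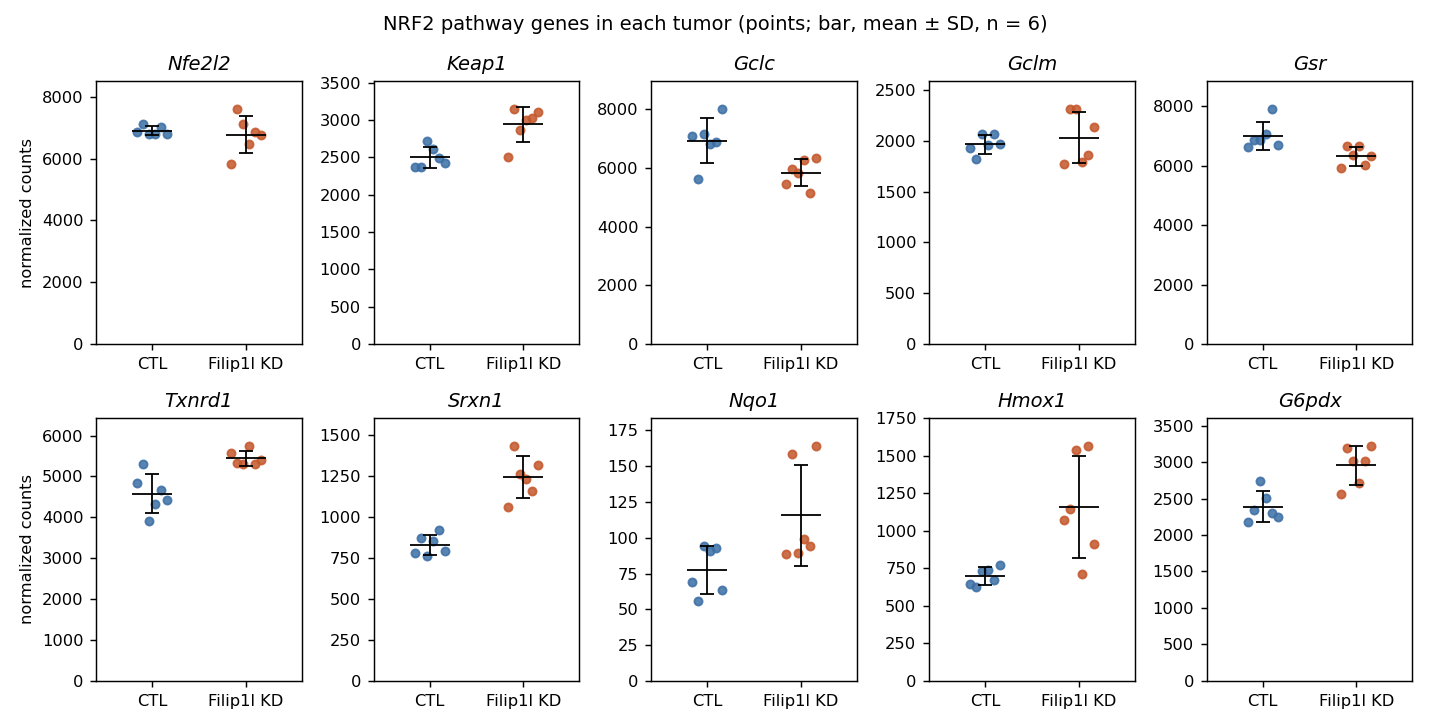
Normalized counts (vertical axes, each from 0) of the 10 genes in the 6 CTL and 6 *Filip1l*-knockdown tumors. Points are tumors and bars are mean ± SD. Only for *Srxn1* do all knockdown points (1059.9 to 1435) lie above all CTL points (765 to 922), and the knockdown points of *Hmox1* spread from 709.9 to 1564.

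*Nfe2l2* (ENSMUSG00000015839, chr2:75675513-75704641, - strand) encodes NRF2 itself. Its normalized counts in the CTL tumors, in the order of replicates 1 to 6, were 6865, 7125, 6811, 6790.1, 7036 and 6780.2, and in the knockdown tumors 5841, 7596, 7117, 6474, 6855 and 6767. The knockdown tumors spread to both sides of the narrow CTL range, with a coefficient of variation of 8.76% compared with 2.10%. The log2 fold change was -0.03 with a 95% interval from -0.16 to 0.09 (adjusted p = 0.707). No change was detected, and a change of the transcript within that interval remains possible.

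*Keap1* (ENSMUSG00000003308, chr9:21229730-21239361, - strand) encodes the adaptor that presents NRF2 for degradation. It had 2377, 2366, 2714, 2618, 2493 and 2427 normalized counts in CTL and 2501, 3144, 2867, 2995, 3033 and 3107 in knockdown tumors. Knockdown replicates 2 to 6 lay above every CTL tumor and replicate 1 lay inside the CTL range. *Keap1* rose from 2499 ± 140.0 to 2941 ± 236 normalized counts (SD, n = 6), a log2 fold change of 0.23 ± 0.06 (SE, adjusted p = 0.00763). The antisense gene *Gm16754* overlaps it on the opposite strand and rose as well, from 34.4 to 52.0 normalized counts (log2 fold change 0.57, adjusted p = 0.0440). Whether the counting used strand is not given in the sources used here, so reads from the shared stretch cannot be assigned to one of them.

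Within each tumor, the log2 ratio of *Keap1* to *Nfe2l2* does not depend on the scaling between tumors. It was between -1.59 and -1.33 in CTL tumors and between -1.31 and -1.11 in knockdown tumors, so the groups did not overlap. The mean was -1.47 ± 0.10 in CTL and -1.20 ± 0.08 in knockdown tumors (SD, n = 6), a difference of 0.26, or 1.20-fold more *Keap1* per *Nfe2l2*. The p of 0.00216 in an exact two-sided permutation test is the smallest that the 924 arrangements can give, and it was 0.00433 after Benjamini-Hochberg adjustment over the 2 ratios tested.

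**Figure D2:**
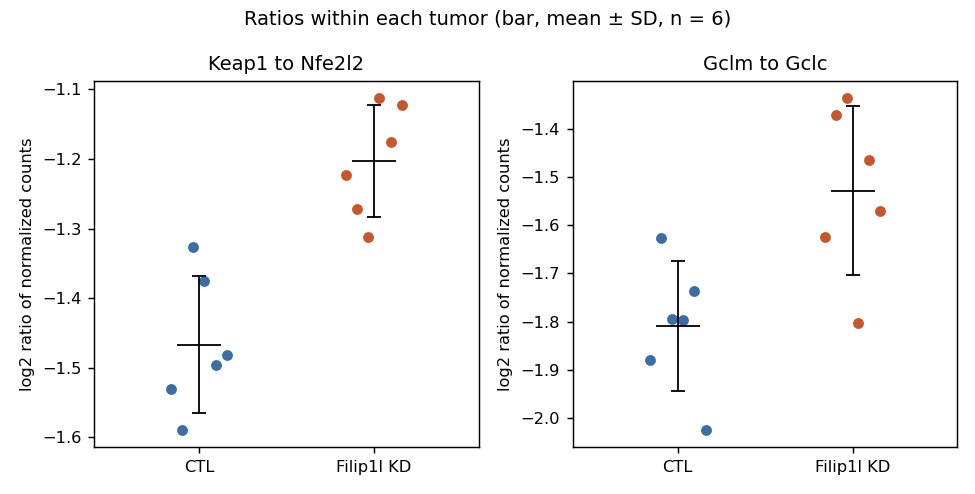
Log2 ratio of the normalized counts of *Keap1* to *Nfe2l2* (left) and of *Gclm* to *Gclc* (right) within each tumor, with mean ± SD over 6 tumors. The vertical axes do not start at 0. The *Keap1* ratios of the knockdown tumors (-1.31 to -1.11) lie above those of CTL (-1.59 to -1.33), and the *Gclm* ratios overlap.

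None of the 3 glutathione genes of the 10 was called higher. *Gclc* (ENSMUSG00000032350, chr9:77754535-77794485, + strand) encodes the catalytic subunit of glutamate-cysteine ligase, the rate-limiting enzyme of glutathione synthesis. Its normalized counts were 7083, 5625, 7165, 6804, 6888 and 7993 in CTL and 5464, 5969, 5829, 6256, 5131 and 6331 in knockdown tumors. CTL replicate 2 lay among the knockdown values, and the other CTL tumors were above every knockdown tumor. *Gclc* fell from 6926 ± 766 to 5829.9 ± 464 (SD, n = 6), a log2 fold change of -0.24 ± 0.08 (SE, adjusted p = 0.0218). The call was lost without CTL replicate 6 (adjusted p = 0.0521) or without knockdown replicate 5 (adjusted p = 0.0519).

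*Gclm* (ENSMUSG00000028124, chr3:122245557-122270732, + strand) encodes the modifier subunit that raises the activity of the same ligase. It had 1924, 1820.0, 2065, 1958, 2067 and 1963 normalized counts in CTL and 1771, 2307, 2309, 1792, 1858 and 2131 in knockdown tumors. Knockdown replicates 2, 3 and 6 were above every CTL tumor, and replicates 1 and 4 were below every CTL tumor. The log2 fold change was 0.04 with a 95% interval from -0.13 to 0.20 (adjusted p = 0.735). The uncharacterized transcript *Gm17494* overlaps *Gclm* on the opposite strand and had 12.1 normalized counts in CTL and 13.4 in knockdown tumors.

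With the catalytic subunit lower and the modifier not, the log2 ratio of *Gclm* to *Gclc* within each tumor was higher in the knockdown group. It ranged from -2.03 to -1.63 in CTL and from -1.80 to -1.34 in knockdown tumors, with overlapping groups. The mean was -1.81 ± 0.13 in CTL and -1.53 ± 0.17 in knockdown tumors (SD, n = 6), a difference of 0.28 or 1.22-fold, with p = 0.0195 in the exact two-sided permutation test and 0.0195 after adjustment over the 2 ratios.

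*Gsr* (ENSMUSG00000031584, chr8:33652523-33698163, + strand) encodes glutathione reductase, which uses NADPH to return oxidized glutathione to its reduced form. Normalized counts were 6612, 6855, 6850.5, 7053, 7893 and 6702 in CTL and 5905, 6664, 6355, 6661, 6013 and 6312 in knockdown tumors. CTL replicate 5 stood above the rest, 4 knockdown tumors were below every CTL tumor, and the other 2 lay just above the lowest CTL tumor. *Gsr* was called lower, from 6994 ± 465 to 6318 ± 317 (SD, n = 6), with a log2 fold change of -0.15 ± 0.05 (SE, adjusted p = 0.0436).

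The call of *Gsr* was not stable. Chromosome 8, where *Gsr*, *Nqo1* and *Hmox1* lie, was lower as a whole in knockdown tumors. The median log2 difference from the CTL mean over 702 genes of that chromosome was between -0.22 and -0.16 in the 6 knockdown tumors and between -0.11 and 0.12 in the CTL tumors. With each tumor's chromosome median removed, the log2 fold change of *Gsr* was 0.05 (adjusted p = 0.489), whereas those of *Nqo1* and *Hmox1* were 0.74 (adjusted p = 0.00747) and 0.88 (adjusted p = 0.000849). The call of *Gsr* was also lost without any 1 of CTL replicates 2, 3, 4 and 5 or knockdown replicates 1, 3, 5 and 6, at adjusted p between 0.0509 and 0.1001. On chromosomes 2, 3, 9 and 10, which hold the other autosomal genes of the 10, the knockdown medians were between -0.03 and 0.06, and on chromosome X between -0.07 and -0.01.

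**Figure D3:**
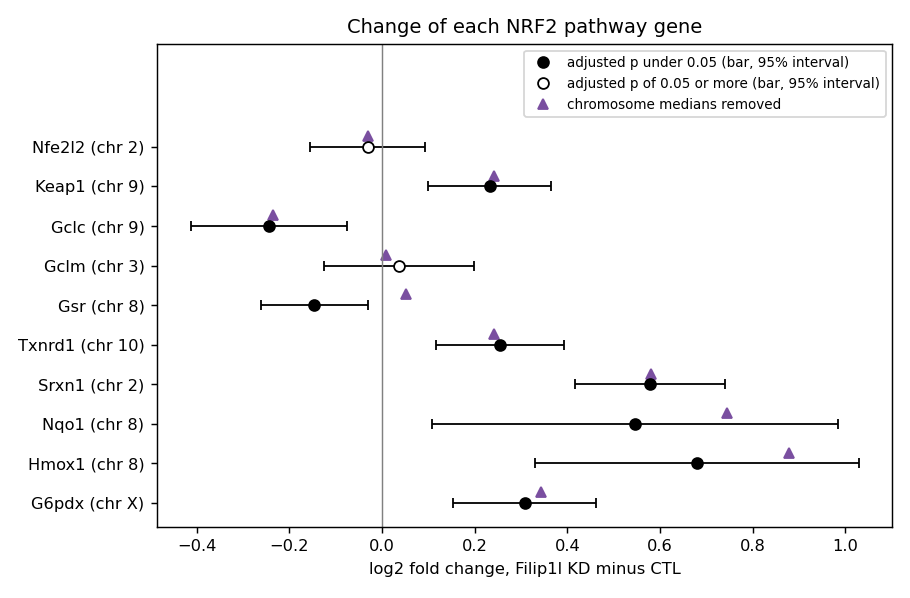
Log2 fold change (horizontal axis, *Filip1l* knockdown minus CTL) of the 10 genes with 95% intervals, filled where the adjusted p was under 0.05. Triangles give the value after each tumor's chromosome median was removed. The triangle of *Gsr* (0.05) lies on the other side of 0 from its point (-0.15), and those of *Nqo1* and *Hmox1* lie to the right of their points.

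Both genes of the thioredoxin branch rose. *Srxn1* (ENSMUSG00000032802, chr2:152105516-152111376, + strand) encodes sulfiredoxin, which repairs overoxidized peroxiredoxins. Its normalized counts were 783, 873, 765, 853, 922 and 792 in CTL and 1059.9, 1435, 1265, 1232, 1159.5 and 1315 in knockdown tumors. The lowest knockdown tumor was above the highest CTL tumor. *Srxn1* rose from 831 ± 61.1 to 1244 ± 129 (SD, n = 6), a log2 fold change of 0.58 ± 0.08 (SE, adjusted p = 3.48e-05), which is 1.49-fold.

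*Txnrd1* (ENSMUSG00000020250, chr10:82833951-82897712, + strand) encodes the cytosolic thioredoxin reductase, a selenoprotein that keeps thioredoxin reduced at the expense of NADPH. It had 4848, 5310.5, 3919.6, 4323, 4658 and 4436 normalized counts in CTL and 5576, 5318, 5300.1, 5748, 5311 and 5414 in knockdown tumors. The groups met at the edge, where CTL replicate 2 lay above the lowest knockdown tumor and below the other 5. *Txnrd1* rose from 4582 ± 476 to 5444 ± 182 (SD, n = 6), a log2 fold change of 0.25 ± 0.06 (SE, adjusted p = 0.00593). Its knockdown tumors were the most even of the 10 genes, with a coefficient of variation of 3.33%.

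*Nqo1* (ENSMUSG00000003849, chr8:107388225-107403206, - strand) encodes a quinone reductase and is a commonly used readout of NRF2. Here its level was low, with 69.0, 55.9, 94.3, 90.7, 92.6 and 63.5 normalized counts in CTL and 88.7, 158, 89.7, 98.9, 94.2 and 164 in knockdown tumors. Knockdown replicates 2 and 6 stood far above the rest, while replicates 1, 3 and 5 lay within the CTL range. *Nqo1* was called higher, from 77.7 ± 16.9 to 116 ± 35.5 (SD, n = 6), with a log2 fold change of 0.55 ± 0.20 (SE, adjusted p = 0.0446). The call was lost without any 1 of CTL replicates 1, 2 and 6 or knockdown replicates 2, 4 and 6, at adjusted p between 0.0507 and 0.104. It was also lost with tumors rescaled to the same 75th percentile (adjusted p = 0.0511).

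*Hmox1* (ENSMUSG00000005413, chr8:75093621-75100589, + strand) encodes heme oxygenase, which breaks heme down to biliverdin, iron and carbon monoxide and is abundant in macrophages that clear red cells. Normalized counts were 642, 622, 731, 738, 674 and 772 in CTL and 1069, 1143, 1536, 709.9, 1564 and 909 in knockdown tumors. Knockdown replicates 3 and 5 were highest, replicate 4 lay inside the CTL range, and the other knockdown tumors were above every CTL tumor. *Hmox1* rose from 696 ± 59.4 to 1155 ± 340.1 (SD, n = 6), a log2 fold change of 0.68 ± 0.16 (SE, adjusted p = 0.0041), the largest of the 10 genes.

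The summed macrophage markers of the same knockdown tumors, in the order of replicates 1 to 6, were 65724, 30911.8, 37181, 24368, 26648 and 24375 normalized counts. Replicate 4, with the lowest *Hmox1* of its group, also had the lowest sum. Replicate 1, with the highest sum, did not have the highest *Hmox1*, and *Lyz2* gave 40989.8 of its 65724 normalized counts. Of the 9 macrophage markers, *Cd163* and *Cd68* were called higher and 7 did not pass the test (21.1% of all genes were called higher). Log2 fold changes were above 0 for 6 of the 9 and below 0 for *C1qa* (-0.12), *C1qb* (-0.07) and *C1qc* (-0.10). *Cd163* rose from 39.8 ± 16.9 to 83.4 ± 42.1 normalized counts (SD, n = 6, log2 fold change 1.06, adjusted p = 0.0205 by limma). In knockdown tumors *Cd163* was highest in replicate 3 (167) and lowest in replicate 2, whereas *Hmox1* was highest in replicate 5 and lowest in replicate 4. Sums of erythroid markers were 774 to 1585 normalized counts in knockdown tumors and 203 to 599 in CTL tumors. Of the erythroid markers, 4 of 5 were called higher (21.1% of all genes). In knockdown replicates 1 to 6 the erythroid sums were 987, 1462, 1585, 774, 1155 and 880.5 normalized counts. Replicates 4 and 6 were lowest and replicates 2, 3 and 5 highest for both these sums and *Hmox1*. The part of either cell type in the change of *Hmox1* was not tested.

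*G6pdx* (ENSMUSG00000031400, chrX:74409483-74429194, - strand) encodes glucose-6-phosphate dehydrogenase, the entry enzyme of the pentose phosphate pathway and a main source of NADPH. It had 2173, 2343, 2746, 2512, 2297 and 2247 normalized counts in CTL and 2569, 3198, 3017, 2709, 3014 and 3221 in knockdown tumors. Knockdown replicates 1 and 4 lay below the highest CTL tumor and the other 4 above it. *G6pdx* rose from 2386 ± 209.7 to 2955 ± 263 (SD, n = 6), a log2 fold change of 0.31 ± 0.07 (SE, adjusted p = 0.00338). The whole gene lies within *Ikbkg*, annotated on the opposite strand, so here too shared reads cannot be assigned to one of them. *Ikbkg* fell from 2162 to 1624 normalized counts (log2 fold change -0.41, adjusted p = 0.000442), so the genes of this pair moved in opposite directions.

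Between genes, levels were compared only as normalized counts per kb of exon. In CTL tumors *Gsr* had the highest length-corrected level, 2539.7 ± 169 normalized counts per kb (SD, n = 6). *Gclc* (1839 ± 203) and *Nfe2l2* (1818 ± 38.1 normalized counts per kb) followed and did not differ beyond their spread. *G6pdx* (775 ± 68.1) and *Txnrd1* (647 ± 67.2 normalized counts per kb) came next, and their spreads met at the edge. *Keap1* with 533 ± 29.8 and *Hmox1* with 398 ± 33.9 normalized counts per kb stood apart from their neighbors by more than these spreads. The levels of *Gclm* (313 ± 14.8) and *Srxn1* (295 ± 21.7 normalized counts per kb) overlapped within their spread, and *Nqo1* was lowest at 50.01 ± 10.9. In knockdown tumors *Gsr* remained highest (2294 ± 115) and *Nqo1* lowest (74.5 ± 22.9 normalized counts per kb). The length-corrected level of *Hmox1*, 659.7 ± 194, then lay among those of *Keap1* and *Txnrd1*, and *Srxn1* (441 ± 45.7) was above *Gclm* (322 ± 40.1).

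**Figure D4:**
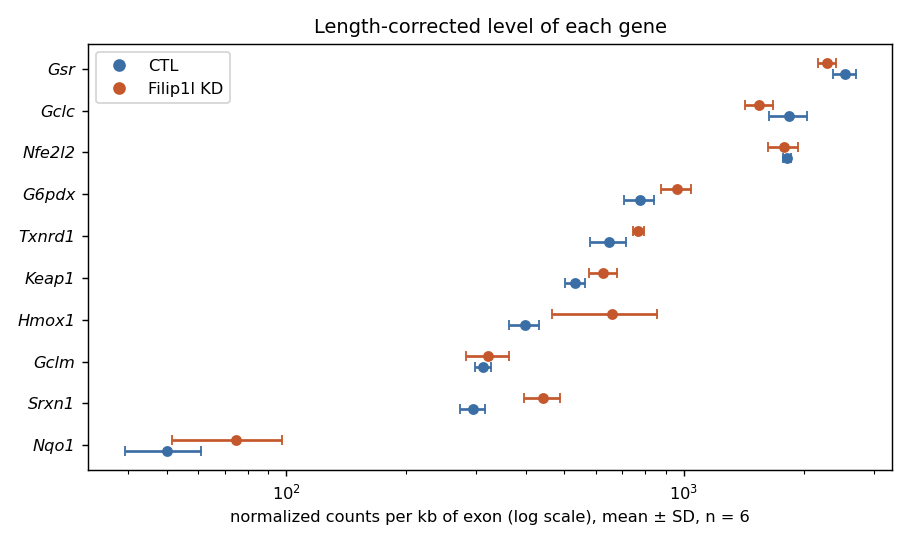
Length-corrected level of the 10 genes, in normalized counts per kb of exon on a log axis, as mean ± SD over 6 CTL and 6 *Filip1l*-knockdown tumors, ordered by the CTL level. Levels run from *Gsr* (2539.7 in CTL) down to *Nqo1* (50.01 in CTL), and the bars of *Gclc* and *Nfe2l2* overlap.

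Across the 12 tumors, with the group means removed, the 10 genes did not vary as one unit. The 45 pairwise Pearson correlations of log2 values had a median of 0.35 and ran from -0.63 for *Txnrd1* with *G6pdx* to 0.84 for *Keap1* with *G6pdx*. These are descriptions over tumors that share their size factors and their mix of cells. Outside the pathway list, the genes most like the mean of the 8 targets over the same 12 tumors, among the 12826 genes whose mean reached 50 normalized counts, were *Nt5c3* (Pearson r = 0.96), *Mrps15* (0.96), *Upp1* (0.95), *Gm37844* (0.95) and *Sap30* (0.93).

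A wider list of NRF2 regulators and targets was drawn up by known membership of the pathway, with earlier results of these data known. It held 56 other genes, of which 55 were measured. Of these, 26 were called higher and 2 lower (of all genes, 21.1% and 20.7%), 8 passed the 2-fold limit, all higher (of all genes, 6.2% passed it upwards and 3.97% downwards), and the groups did not overlap for 12 with knockdown higher and for 1 with knockdown lower (10.6% and 10.9% of all genes). Their median log2 fold change was 0.24. Without knockdown replicate 1, 29 were called higher and 4 lower. The epithelial and neutrophil marker sums given above moved with these groups in the same direction, and their part was not tested.

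**Figure D5:**
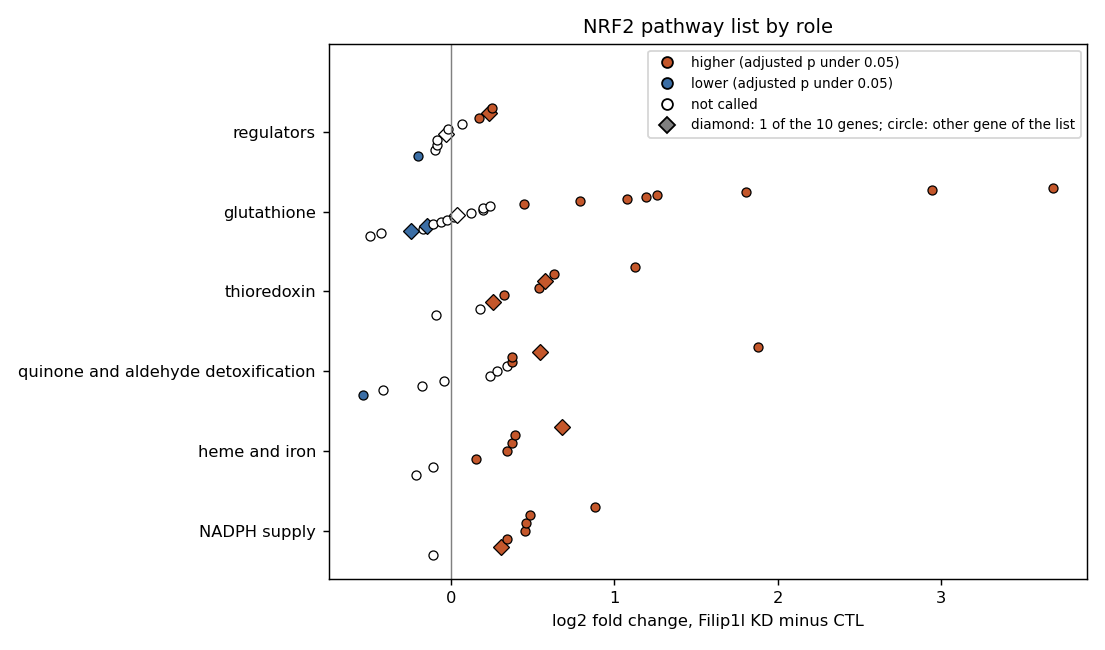
Log2 fold change (horizontal axis, *Filip1l* knockdown minus CTL) of the 65 measured NRF2 pathway genes by role, with diamonds for the 10 genes described first, and fill for the direction of the call. The glutathione row holds the largest rises (3.68 for *Gsta1*, 2.94 for *Abcc2*). Values of *Abcc2* were near the floor of 3 reads in CTL replicates 1, 2 and 3. The same row holds *Gclc* and *Gsr*, which were called lower.

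Among 10 regulators, 3 rose, 1 fell and 6 did not pass the test, a share of calls near the 41.9% of all genes called in either direction. Of all genes, 21.1% were called higher and 20.7% lower. Besides *Keap1*, *Bach1*, the repressor that competes with NRF2 for antioxidant elements, rose from 1483 ± 118 to 1768 ± 200.1 normalized counts (SD, n = 6, log2 fold change 0.25, adjusted p = 0.0189). *Nfe2l1*, which encodes the related factor NRF1, rose from 6649 ± 399 to 7483 ± 241 (log2 fold change 0.17, adjusted p = 0.0126). *Cul3*, the scaffold of the ligase that KEAP1 serves, fell from 4188 ± 244 to 3633 ± 155 normalized counts (log2 fold change -0.20, adjusted p = 0.00495). *Rbx1*, the RING subunit of the same ligase, did not pass the test (log2 fold change -0.02, adjusted p = 0.878).

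Among 22 measured glutathione genes, 8 rose, *Gclc* and *Gsr* fell, and 12 did not pass the test. The share called in either direction was again near the 41.9% of all genes, of which 21.1% were called higher and 20.7% lower. In this role 6 genes passed the 2-fold limit upwards (6.2% of all genes) and none downwards. The groups did not overlap, with knockdown higher, for 6 genes (10.6% of all genes). The 8 that rose were transferases, transporters and 1 peroxidase. *Gsta1*, an alpha-class glutathione transferase, had 18.0 to 41.4 normalized counts in CTL (median 25.4) and 114 to 791 in knockdown tumors (median 418), a log2 fold change of 3.68 ± 0.39 (SE, adjusted p = 5.43e-06). The groups were far apart, but *Gsta1* shares sequence with the close copy *Gsta2*, which is not among the listed genes, so the assignment of its reads is uncertain.

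*Gpx2*, the epithelial glutathione peroxidase, rose from 471 ± 189 to 1575 ± 364 normalized counts (SD, n = 6), with a log2 fold change of 1.80 ± 0.24 (SE, adjusted p = 4.07e-05) and no overlap. *Gsta3* and *Gstm2*, further glutathione transferases, rose by log2 fold changes of 1.26 (adjusted p = 0.000601) and 1.20 (adjusted p = 0.000123), also without overlap, and *Gsta4*, which acts on lipid aldehydes, by 0.79 (adjusted p = 0.0149) with overlap. In all, 4 of 8 measured glutathione transferases rose and the other 4 did not pass the test (21.1% of all genes were called higher).

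Of 4 Abcc transporters, which carry glutathione conjugates out of cells, 3 rose (21.1% of all genes were called higher). *Abcc3* went from 1725 ± 321 to 3665 ± 730.1 normalized counts (SD, n = 6, log2 fold change 1.08, adjusted p = 6.61e-05) and *Abcc4* from 4109 ± 622 to 5552 ± 355 (log2 fold change 0.45, adjusted p = 0.00123), both without overlap. *Abcc2* was near the floor of 3 reads in CTL replicates 1, 2 and 3 (1.0, 4.73 and 0 normalized counts), reached 68.7 in CTL replicate 5 and ranged from 26.1 to 130.1 in knockdown tumors, and it was called higher (adjusted p = 0.0115). *Abcc4* lies on chromosome 14, whose median log2 difference was 0.32 to 0.42 in knockdown tumors, and *Abcc2* on chromosome 19, where it was -0.38 to -0.33.

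*Slc7a11*, the cystine importer that feeds glutathione synthesis, is described after its values were seen because 1 tumor decides whether it is called lower. Its normalized counts were 340.0, 367, 300.4, 334, 323 and 316 in CTL and 663, 207, 202, 209.5, 158 and 229.7 in knockdown tumors. Replicate 1 of the knockdown group was above every CTL tumor and the other 5 were below every CTL tumor. It did not pass the test over all tumors (log2 fold change -0.43, adjusted p = 0.206), and without knockdown replicate 1 it fell by 0.72 on the log2 scale (adjusted p = 7.05e-05). The same replicate had the highest sum of macrophage markers of the 12 tumors, and the part of those cells in its value was not tested.

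In the thioredoxin branch 6 of 8 genes rose and 2 did not pass the test, where 21.1% of all genes were called higher. *Glrx*, glutaredoxin, which reverses glutathionylation of proteins, rose from 772 ± 108 to 1691 ± 253 normalized counts (SD, n = 6), a log2 fold change of 1.13 ± 0.11 (SE, adjusted p = 2.72e-06) without overlap. *Prdx6*, a peroxiredoxin that also repairs phospholipids, rose by a log2 fold change of 0.63 (adjusted p = 4.15e-05) without overlap. *Txn1*, thioredoxin itself, rose by 0.54 (adjusted p = 0.00203) and *Prdx1*, the substrate of sulfiredoxin, by 0.33 (adjusted p = 0.00911) on the log2 scale, both with overlap.

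Of 11 genes for quinone and aldehyde detoxification, 4 rose, 1 fell and 6 did not pass the test. The share called in either direction is also near the 41.9% among all genes, of which 21.1% were called higher and 20.7% lower. *Akr1c13*, an aldo-keto reductase with several close copies, among which reads may be split, rose from 259 ± 33.0 to 988 ± 288 normalized counts (SD, n = 6), a log2 fold change of 1.88 ± 0.18 (SE, adjusted p = 2.47e-06) without overlap. *Akr1b8* and *Cbr1*, which reduce aldehydes and carbonyls, each rose by 0.37 on the log2 scale (adjusted p = 0.0196 and 0.0429). *Osgin1*, a target of NRF2 that restrains growth, fell from 1696 ± 251 to 1166 ± 148 (log2 fold change -0.54, adjusted p = 0.000811) without overlap, and it lies on chromosome 8.

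Of 7 heme and iron genes, 5 rose and 2 did not pass the test (21.1% of all genes were called higher). Besides *Hmox1*, *Slc40a1*, the iron exporter ferroportin, rose from 1083 ± 139 to 1414 ± 112 normalized counts (SD, n = 6, log2 fold change 0.39, adjusted p = 0.00223) without overlap. *Ftl1*, the ferritin light chain, rose by 0.38 (adjusted p = 0.00812) and *Blvra*, biliverdin reductase, by 0.34 (adjusted p = 0.0107) on the log2 scale. *Ftl1* has many processed copies in the genome, so its counts are uncertain.

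Of 7 genes for NADPH supply and the pentose phosphate pathway, 6 were called higher and 1 did not pass the test (21.1% of all genes were called higher). *Tkt*, transketolase of the pentose phosphate pathway, rose from 14759.9 ± 1324 to 27439 ± 4225 normalized counts (SD, n = 6), a log2 fold change of 0.88 ± 0.10 (SE, adjusted p = 1.03e-05) without overlap, and it lies on chromosome 14, whose median was raised as given above. *Pgd*, which makes NADPH further along the same pathway, rose by 0.49 (adjusted p = 0.000807) and *Idh1*, the cytosolic isocitrate dehydrogenase, by 0.46 (adjusted p = 0.000654) on the log2 scale, the latter without overlap. *Pgls*, whose enzyme acts between those of *G6pdx* and *Pgd*, was the 1 gene that did not pass the test (log2 fold change -0.11, adjusted p = 0.345).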

How the data were processed

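RNA from 12 tumors was sequenced in 1 library each (6 CTL, 6 *Filip1l*-knockdown, groups from the labels). According to the labels and the study's methods, reads were converted with bcl2fastq 2.20, trimmed with Trimmomatic 0.36, aligned with STAR 2.5.2b to a mouse genome (mm10 per the labels) and counted per gene with featureCounts of Subread 1.5.2. The authors divided these counts by DESeq2 size factors before they were deposited, so the deposited values are a normalized signal, not corrected for gene length. Symbols, positions and exon lengths came from GENCODE vM21 (GRCm38), which held 15655 of 15687 identifiers (99.8%).

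Log2 of the normalized count plus 1 was compared with limma 3.58.1 (variance trend, Benjamini-Hochberg adjustment over all genes, R 4.3.3). Fold changes are on that scale, which understates low genes. A minimum mean of 5 removed 0 genes, the lowest mean being 9.28. Whole reads could be recovered for 100% of values (tolerance 0.01), and edgeR 4.0.16 and DESeq2 1.42.0 on those reads called 6626 and 6960 genes, compared with 6566 by limma. Both were added after seeing the data. The labels call the tumors of a group biological replicates and name no batch, and the study injected several mice per line. That each sequenced tumor came from its own animal is not stated outright, so p-values measure the spread between these tumors. The p-values do not measure a spread between independently made lines. The steps were tested on simulated data.

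The 10 genes, the lists and the tests were chosen with earlier results of these data known. Of the wider list, genes past the 2-fold limit and at most 3 more called genes per role are named. *Slc7a11*, *Fth1*, *Gss*, *Aldh3a1*, *Txn2*, *Rbx1*, *Pgls* and the genes overlapping a member were named after their values were seen. So were the macrophage markers *Cd163*, *Cd68*, *Lyz2*, *C1qa*, *C1qb* and *C1qc* and the epithelial markers *Cdh1*, *Krt8*, *Krt18* and *Krt19*. Marker lists cover macrophages, neutrophils, epithelium, fibroblasts, skeletal muscle, erythroid cells, endothelium, and alveolar and airway epithelium. As alternatives, the pseudocount was 0.5 or 8, the filter was dropped or set at a mean of 20, and other scalings, no variance trend, replicate number as a block, removal of chromosome medians (genes with a mean of at least 50) and leaving out each tumor were run. Ratios were tested with exact permutations. Protein sequences were not used here.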

Additional observations from a re-analysis of the deposited data

Results flagged for a closer look

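In 5 of 90 groups of 6 tumors examined, 1 tumor stood apart from the rest of its group by Dixon's criterion. Chance alone passes this criterion in about 1 of 20 groups. The groups were the named genes, without the cell type markers, and the 2 ratios, each in CTL and in knockdown. For *Gsr*, CTL replicate 5 had 7893 normalized counts and the other CTL tumors 6612 to 7053. The same tumor, which had the fewest reads of the 12 (17834745), stood highest in its group for *Abcc2* (68.7 normalized counts, the others 0 to 16.8) and for *Cbr1* (264, the others 164 to 200.1). *Filip1l*-knockdown replicate 1 was lowest in its group for *Abcc3* (2244 normalized counts, the others 3657 to 4235) and highest for *Slc7a11* (663, the others 158 to 229.7). No explanation was tested for these values.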

How the results depend on the processing

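*Keap1*, *Txnrd1*, *Srxn1*, *Hmox1* and *G6pdx* were called higher under all 23 alternatives run, and the *Keap1* to *Nfe2l2* ratio kept its direction and call under all 16 run on it. The 2 lower calls among the 10 genes were the least stable. Their count was 1 without the variance trend, 1 with the replicate block, 1 with chromosome medians removed, and 0 to 2 when a tumor was left out, with 0 without knockdown replicate 5. The count of higher calls stayed between 5 and 6, *Nqo1* being the call that was lost. Of the wider list, 22 to 29 genes were called higher and 2 to 4 lower when a tumor was left out or another setting used, the 4 being reached without knockdown replicate 1, which adds *Slc7a11* and *Fth1*. Directions that turned were those of *Gsr* with chromosome medians removed (0.053), of *Gclm* with tumors scaled to the same total (-0.0048) and in a range from -0.0025 to 0.074 when a tumor was left out, and of *Nfe2l2*, from -0.065 to 0.011 when a tumor was left out. Apart from the chromosome medians and the smaller number of tumors, the cause of these changes was not tested. Replicate numbers were not shown to pair the tumors, as the deviations of same-numbered tumors correlated between -0.269 and 0.0990. With the replicate block all the same, the calls of *Nqo1* (adjusted p = 0.107) and *Gsr* (adjusted p = 0.0884) were lost, the *Gclm* to *Gclc* difference of 0.28 had p = 0.0625, the *Keap1* to *Nfe2l2* difference had p = 0.0312, the smallest that 6 pairs allow being 0.0312 in an exact test, and 5905 genes were called in place of 6566. Cell type markers aside, *Abcc2* is the named gene with values at or under the floor of 3 reads, in CTL replicates 1 and 3. The marker *Sftpc* was at 0 in CTL replicates 2, 4 and 5 and in knockdown replicate 4.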

Other observations

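Of the genes of the wider list, 5 did not pass the test over all 12 tumors but did without knockdown replicate 1. Beside *Slc7a11*, these were *Gss*, glutathione synthetase (log2 fold change 0.31 without that tumor, adjusted p = 0.0071 by limma, compared with 0.24 and 0.0530 with it), *Aldh3a1*, an aldehyde dehydrogenase (0.38, adjusted p = 0.0311), *Txn2*, mitochondrial thioredoxin (0.23, adjusted p = 0.0271), and *Fth1*, the ferritin heavy chain, which fell by 0.27 on the log2 scale (adjusted p = 0.0256). *Fth1* lies on chromosome 19, whose median was lower in knockdown tumors, and has processed copies in the genome.

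Summed skeletal muscle markers ranged from 2524 to 13236 normalized counts in CTL and from 5292 to 94433 in knockdown tumors (7 of 8 called higher), and endothelial markers from 2042 to 2589 and from 2601 to 4126 (4 of 5 called higher). Fibroblast markers ranged from 160012 to 260347 and from 74885 to 252719.9 normalized counts, with 2 of 7 called lower and overlapping sums. Markers of alveolar and airway epithelium were low, between 100.4 and 239 normalized counts in CTL and between 59.7 and 897 in knockdown tumors. Their sums overlapped, and of 4 markers 1 was called higher and 1 lower. Of all genes, 21.1% were called higher and 20.7% lower.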
